A study of Mus musculus with 7 samples.

Results

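Heat shock proteins are molecular chaperones, and 10 genes encoding them were followed here in mouse macrophages of glioblastoma xenografts. The 10 were taken from the deposited table by symbol, out of 25571 rows. They are Hsp90aa1, Hsp90ab1, Hspa1a, Hspa1b, Hspa8, Hsph1, Dnajb1, Hspb1, Hspe1 and Hspa5. They were chosen by family, with earlier results of the Pracinostat against DMSO counts of these same libraries in view, so the members' differences between the groups are given as descriptions and support nothing by themselves. All 10 passed the low-count filter.

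The cells were sorted on CD11b, the integrin chain encoded by Itgam, from dissociated T387 glioblastoma tumours grown orthotopically in the brains of NSG mice, an immunodeficient strain that lacks T, B and NK cells. The drug was Pracinostat, which blocks zinc-dependent histone deacetylases and carries a hydroxamate group. Mice received it by mouth at 30 mg/kg, 4 times per week for 3 weeks, from day 7 after implantation (4 libraries). The DMSO group received the same solvent mixture without drug on the same schedule (3 libraries). The labels also give 3 mg/kg for the prepared drug, and they call the libraries biological replicates without tying them to animals or giving the animals' age or sex, so p-values measure the spread between these samples.

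HSP90 holds kinases, steroid receptors and other client proteins in a form that can be activated, with HSP70, its J-domain partners of the HSP40 family and several co-chaperones handing clients over. In unstressed cells the transcription factor HSF1 is held inactive by chaperones, and on heat or proteotoxic stress it binds heat shock elements and induces the cytosolic members. Hspa5, or BiP, belongs to a separate response of the endoplasmic reticulum, driven by ATF6, XBP1 and ATF4. HDAC6, a cytoplasmic zinc-dependent deacetylase, removes acetyl groups from HSP90, which links the drug's class of targets to this chaperone at the protein level. RNA counts do not measure that acetylation.

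The promoter table of RefSeq (build GRCm38.p6) held 7 of the 10 members, those other than Hsp90aa1, Hsp90ab1 and Hspa8. The stretches below are the 130 bases before the annotated start, 5′ to 3′ on the gene's strand, and are shown because they separate members carrying heat shock element letters from the one carrying an endoplasmic reticulum stress element. Capitals mark the fixed letters of GAANNTTC or TTCNNGAA, the paired heat shock unit, and in Hspa5 those of the endoplasmic reticulum stress element, which is CCAAT, 9 bases of any kind and CCACG. Both strands were searched.
Hspa1a (chr17:34972157-34972286, minus strand): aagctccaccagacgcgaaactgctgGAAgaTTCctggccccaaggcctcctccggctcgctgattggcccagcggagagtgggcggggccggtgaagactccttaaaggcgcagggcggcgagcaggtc
Hspa1b (chr17:34959239-34959368, minus strand): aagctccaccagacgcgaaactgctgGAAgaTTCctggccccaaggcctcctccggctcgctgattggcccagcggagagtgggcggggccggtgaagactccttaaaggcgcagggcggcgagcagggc
Hspb1 (chr5:135887789-135887918, plus strand): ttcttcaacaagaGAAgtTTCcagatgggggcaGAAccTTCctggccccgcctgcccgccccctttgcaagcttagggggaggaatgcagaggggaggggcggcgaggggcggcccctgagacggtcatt
Hspe1 (chr1:55088018-55088147, plus strand): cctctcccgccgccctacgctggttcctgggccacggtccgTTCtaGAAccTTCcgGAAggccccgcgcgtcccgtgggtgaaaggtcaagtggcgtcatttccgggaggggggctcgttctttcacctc
Hspa5 (chr2:34771960-34772089, plus strand): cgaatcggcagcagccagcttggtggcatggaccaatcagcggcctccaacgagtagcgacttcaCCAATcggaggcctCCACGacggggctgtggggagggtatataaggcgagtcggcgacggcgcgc

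The paired heat shock unit was found in the 300-base windows of 5 members, Hspa1a, Hspa1b, Hsph1, Hspb1 and Hspe1, against 15.1% of 32851 promoter windows. The longer triplet, in which a paired unit is followed after 2 bases of any kind by its first 3 letters again and so overlaps the paired match, was found in Hspe1 and Hsph1, against 0.603% of windows. In Hspe1 the matching letters ran from position -89 to -72, where -1 is the base before the start. In Hsph1, which has 2 annotated starts in the table, the triplet lay after both starts and a paired unit lay before both. The stress element of the endoplasmic reticulum was found in Hspa5 alone among the 7, at position -65 to -47, against 0.119% of windows. Neither annotated start of Dnajb1 had any of these letters within its window. The promoter windows of Hspa1a and Hspa1b differed at 4 of 300 bases, and the stretches printed above differed at 1.

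The levels of the members differed over a wide range in the control cells. Per kilobase of annotated exon (GENCODE M21, all exons of a gene merged), Hspa8, the constitutive HSP70 of the cytosol, was highest at 434.8 ± 24.8 CPM per kb (SD, n = 3), where CPM are counts scaled to a common library total. Next came Hsp90ab1, the constitutive HSP90, at 367.7 ± 31.4, then Hspa5 at 262.3 ± 33.0 and Hsp90aa1, the inducible HSP90, at 110.9 ± 16.3 CPM per kb. The inducible HSP70 copies Hspa1b and Hspa1a stood at 34.1 ± 5.99 and 21.5 ± 3.99 CPM per kb, with Dnajb1, an HSP40 that stimulates HSP70, at 21.6 ± 2.15. Hspe1 (10.6 ± 3.81), Hspb1 (7.83 ± 3.73) and Hsph1 (6.88 ± 1.06) were lowest. Of the 9 steps in this order, the DMSO libraries of neighbours overlapped in 3, those between Dnajb1 and Hspa1a, between Hspe1 and Hspb1 and between Hspb1 and Hsph1. The constitutive cytosolic forms and BiP thus headed the order, and all 3 DMSO libraries placed them above every other member.

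Together the 10 members held 0.502, 0.464 and 0.488% of all counts in DMSO replicates 1 to 3, and 0.592, 0.541, 0.601 and 0.506% in Pracinostat replicates 1 to 4. On these raw totals, without TMM scaling, the groups did not overlap, with Pracinostat replicate 4 only just above the highest DMSO library. That separation depends on the scaling. The TMM factors, 1.022 for Pracinostat replicate 4 and 1.003 for DMSO replicate 1, would place Pracinostat replicate 4 inside the DMSO range. Hspa8, Hspa5 and Hsp90ab1 made up 82.8 to 85.2% of that sum in every library, so it reports mainly these 3 genes.

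No member passed the test between the groups. By edgeR 0 of 10 had an adjusted p under 0.05, where the background over all 15822 genes tested was 0% (0 genes), and DESeq2 and limma-voom also called 0 members. Over all genes DESeq2 called 27 (0.16%) and limma-voom 0. At an unadjusted p under 0.05, 3 members were higher with Pracinostat and 0 lower, against 2.81% and 1.37% of all genes. Of the 10, 7 had positive fold changes, with a median log2 fold change of 0.11, beside 52.3% positive and a median of 0.02 over all genes. Groups that did not overlap were seen for 1 member, Dnajb1, on the higher side, where 3.51% of all genes had such groups. These counts come from the contrast with which the set was proposed, and nothing is read from them.

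**Figure D1:**
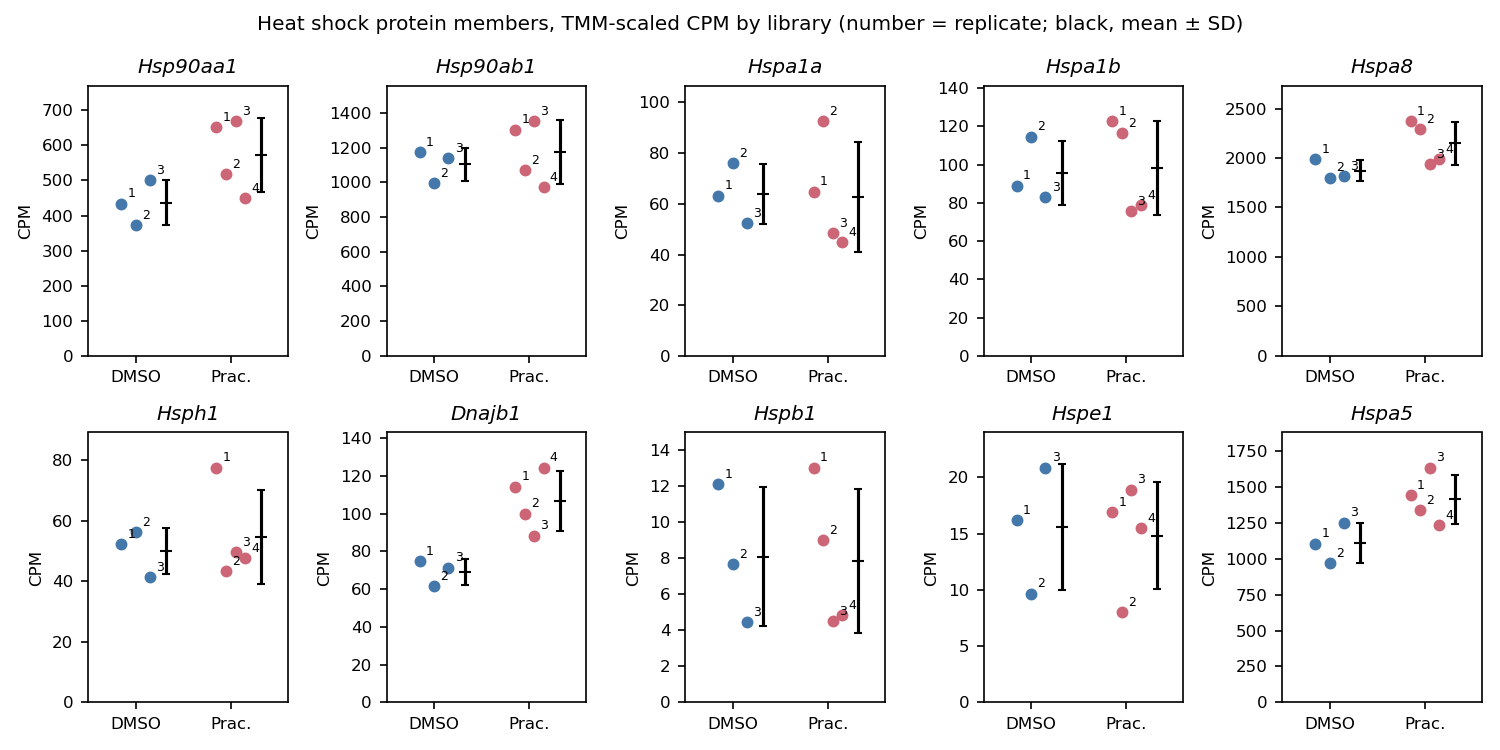
TMM-scaled CPM (vertical axis, from 0) of the 10 members in each of the 3 DMSO (blue) and 4 Pracinostat (red) libraries, numbered by replicate, with mean ± SD in black. Dnajb1 is the member whose Pracinostat points, 88.4 to 124 CPM, all lie above its DMSO points, 61.5 to 74.8 CPM.

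Dnajb1 recruits HSP70 to unfolded substrates and is one of the standard targets of HSF1. Its level was 74.8, 61.5 and 71.4 CPM in the DMSO libraries and 114, 100.03, 88.4 and 124 CPM in Pracinostat replicates 1 to 4. Every Pracinostat library lay above every DMSO library. The means were 69.2 ± 6.88 CPM (SD, n = 3) and 106.8 ± 15.8 CPM (SD, n = 4), a log2 difference of 0.63 ± 0.18 (SE), or 1.54-fold. Over 16 alternative fits this value ran from 0.52 to 0.71, the lowest being without DMSO replicate 2 and Pracinostat replicate 1, in which the collagen transcript Col1a1 stood at 729 and 421 CPM, against 11.97 to 32.2 CPM elsewhere.

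HSP90 has an inducible and a constitutive cytosolic gene, and the difference between them in response was not tested. Hsp90aa1 was at 434, 373 and 501 CPM with DMSO and at 652, 517, 669 and 449.7 CPM with Pracinostat. Only Pracinostat replicate 4 lay within the DMSO range. The DMSO mean was 436 ± 63.9 CPM (SD, n = 3) and the Pracinostat mean 572 ± 106.1 CPM (SD, n = 4), a log2 difference of 0.39 ± 0.17. Hsp90ab1 was at 1174, 996 and 1138 CPM with DMSO and at 1303, 1068, 1351 and 973 CPM with Pracinostat. Of the drug-treated libraries 2 lay above every DMSO library and 1 lay below them all. Its log2 difference was 0.09 ± 0.16. Without these collagen-rich libraries it was -0.02 ± 0.18, while that of Hsp90aa1 was 0.23 ± 0.20.

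As a share of the counts of both HSP90 genes, Hsp90aa1 made up 27.0, 27.2 and 30.6% in the DMSO libraries and 33.4, 32.6, 33.1 and 31.6% in the Pracinostat libraries. The group means were 28.3 ± 1.99% (SD, n = 3) and 32.7 ± 0.774% (SD, n = 4), and the groups did not overlap. The nearest libraries were DMSO replicate 3, with a 95% Wilson interval of 30.0 to 31.1%, and Pracinostat replicate 4, with 30.9 to 32.4%, and these intervals overlap. Such intervals cover counting error only. The share is free of library scaling, but it is made from values of the same contrast and was not tested. How often ratios of other gene pairs separate these groups was not counted, so nothing is read from the separation.

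**Figure D2:**
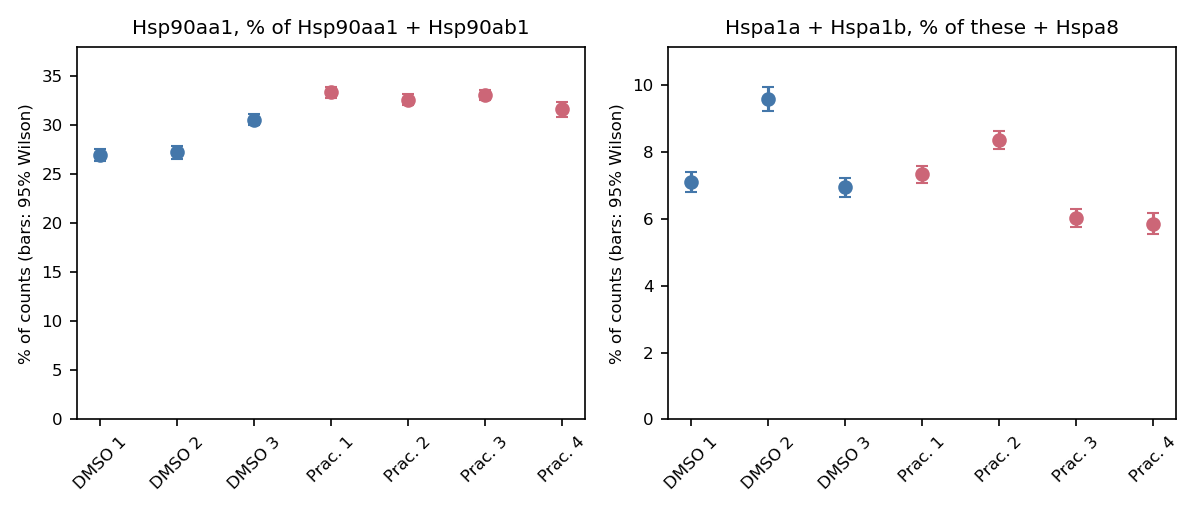
Left, Hsp90aa1 as a percentage of Hsp90aa1 plus Hsp90ab1 counts, and right, Hspa1a plus Hspa1b as a percentage of these plus Hspa8, for each DMSO (blue) and Pracinostat (red) library, with 95% Wilson intervals as bars. On the left the Pracinostat libraries (31.6 to 33.4%) lie above the DMSO libraries (27.0 to 30.6%), and on the right the groups overlap.

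The inducible HSP70 genes, the classical readout of a heat shock response, had group means that differed by less than the spread within either group. Hspa1a was at 63.3, 76.0 and 52.4 CPM with DMSO and at 64.8, 92.6, 48.4 and 44.8 CPM with Pracinostat. Hspa1b was at 89.1, 114.6 and 83.0 CPM with DMSO and at 122.7, 116.3, 75.6 and 78.9 CPM with Pracinostat. For each gene the Pracinostat libraries lay on both sides of the DMSO range. The log2 differences were -0.03 ± 0.25 for Hspa1a and 0.04 ± 0.21 for Hspa1b, and each changed sign when single libraries were left out.

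Hspa1a and Hspa1b are near-identical copies, and how reads were divided between them is uncertain. Of all 150-base words in the annotated Hspa1a transcript, 38.1% also occur in Hspa1b, and 40.5% of those of Hspa1b occur in Hspa1a. Hsp90aa1 shared 0% of its words with Hsp90ab1. Summed, the inducible pair stood at 152.4, 190.6 and 135.4 CPM with DMSO and at 187.5, 208.9, 124.1 and 123.7 CPM with Pracinostat, a log2 difference of 0.01 ± 0.21. The sum was free of the uncertain split and still lay on both sides of the DMSO range. Hspa1a made up 38.7 to 41.5% of the pair's counts with DMSO and 34.6 to 44.3% with Pracinostat.

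Hspa8, which folds new proteins and strips clathrin from vesicles in unstressed cells, was at 1993, 1801 and 1816 CPM with DMSO. With Pracinostat it was at 2372, 2293, 1936 and 1991 CPM. Pracinostat replicates 1 and 2 lay above every DMSO library and replicates 3 and 4 lay within the DMSO range, and the log2 difference was 0.20 ± 0.14. Between libraries of one group Hspa8 varied least of the members, with an SD of 0.12 on the log2 CPM scale. Relative to Hspa8, the inducible pair made up 7.10, 9.57 and 6.94% of HSP70 counts with DMSO and 7.33, 8.35, 6.02 and 5.85% with Pracinostat, without separation of the groups.

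Hsph1 encodes HSP110, which exchanges nucleotide on HSP70. It was at 52.4, 56.2 and 41.4 CPM with DMSO and at 77.6, 43.3, 49.6 and 47.7 CPM with Pracinostat, with Pracinostat replicate 1 far above the rest. The log2 difference was 0.13 ± 0.24, and -0.09 ± 0.23 without that library. Hspb1, the small heat shock protein HSP27, was low, at 12.1, 7.68 and 4.44 CPM with DMSO and at 13.0, 9.01, 4.50 and 4.83 CPM with Pracinostat. Its highest libraries were replicate 1 of each group, and its log2 difference was -0.04 ± 0.53. Only 50 to 191 counts stood behind each of these values, which limits how small a difference could be seen.

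The remaining members work in organelles. Hspe1, the HSP10 lid of the mitochondrial chaperonin, was at 16.2, 9.68 and 20.9 CPM with DMSO and at 16.9, 8.04, 18.9 and 15.5 CPM with Pracinostat (log2 difference -0.07 ± 0.38). Both groups held 1 low library, replicate 2 in each. Its partner Hspd1, the HSP60 barrel, was at 89.2 ± 20.8 CPM (SD, n = 3) and 110.2 ± 25.3 CPM (SD, n = 4), with a log2 difference of 0.31 ± 0.22.

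Hspa5, the HSP70 of the endoplasmic reticulum whose promoter is printed above, was at 1106, 971 and 1251 CPM with DMSO and at 1445, 1340.0, 1634 and 1234 CPM with Pracinostat. As with Hsp90aa1, Pracinostat replicate 4 was the single drug-treated library inside the DMSO range. Means were 1109 ± 139.7 CPM with DMSO (SD, n = 3) and 1413 ± 170.2 CPM with Pracinostat (SD, n = 4). The log2 difference was 0.35 ± 0.15, and 0.26 ± 0.18 without both collagen-rich libraries.

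**Figure D3:**
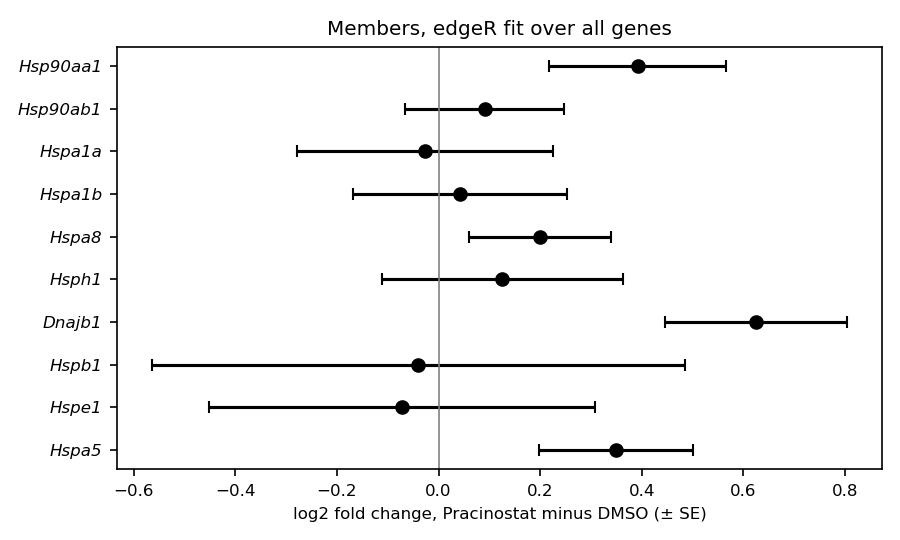
Log2 fold change of each member, Pracinostat minus DMSO (horizontal axis), with its standard error as bars, from the edgeR fit over all genes. Dnajb1 (0.63), Hsp90aa1 (0.39) and Hspa5 (0.35) lie farthest to the right, and Hspa1a, Hspa1b, Hspb1 and Hspe1 lie near 0.

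The members were also compared with each other across libraries. A correlation over all 7 libraries includes the difference between the groups, so it is given with its value after centring each group. Of the 45 pairs of members, 31 had a positive Pearson r over the 7 libraries and 14 a negative one, with a median of 0.27. A single pair passed a two-sided exact permutation test after Benjamini-Hochberg adjustment over 45 pairs, Hsp90aa1 with Hspa5. Its r was 0.963 (exact permutation p = 0.000794, adjusted p = 0.0357) and its rho was 1 (exact permutation p = 0.000397, adjusted p = 0.0179). Both genes placed the libraries in the same order, from Pracinostat replicate 3 at the top through Pracinostat replicates 1 and 2, DMSO replicate 3, Pracinostat replicate 4 and DMSO replicate 1 to DMSO replicate 2. The permutations ran over all 7 libraries regardless of group, so these p-values include the difference between the groups. Without the 2 libraries farthest from the median of Hsp90aa1, r was 0.919, and with each group centred on its own mean it was 0.943. The centred r describes how the 2 genes varied within the groups and was not tested. Leaving out any 1 library gave r of 0.942 to 0.984.

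Other pairs did not pass. Hsp90aa1 and Hsp90ab1 had an r of 0.839 (exact permutation p = 0.0228, adjusted p = 0.257) with a rho of 0.679 (exact permutation p = 0.110, adjusted p = 0.616), with r of 0.670 without the 2 farthest libraries and 0.938 after centring. Hspa1a and Hspa1b, which share reads, had an r of 0.852 (exact permutation p = 0.0212, adjusted p = 0.257) with a rho of 0.857 (exact permutation p = 0.0238, adjusted p = 0.536), with r of 0.851 without the 2 farthest libraries and 0.861 after centring. The most negative pair was Hspa1a with Hspe1, at r = -0.835 (exact permutation p = 0.0181, adjusted p = 0.257) and rho = -0.571 (exact permutation p = 0.20, adjusted p = 0.758), with r = -0.869 without the 2 farthest libraries and r = -0.850 after centring. Between the inducible HSP90 and an inducible HSP70 gene no relation passed, with r of -0.225 between Hsp90aa1 and Hspa1a (exact permutation p = 0.622, adjusted p = 0.897), rho of -0.143 (exact permutation p = 0.783, adjusted p = 0.985) with r of 0.326 without the 2 farthest libraries and -0.210 after centring.

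**Figure D4:**
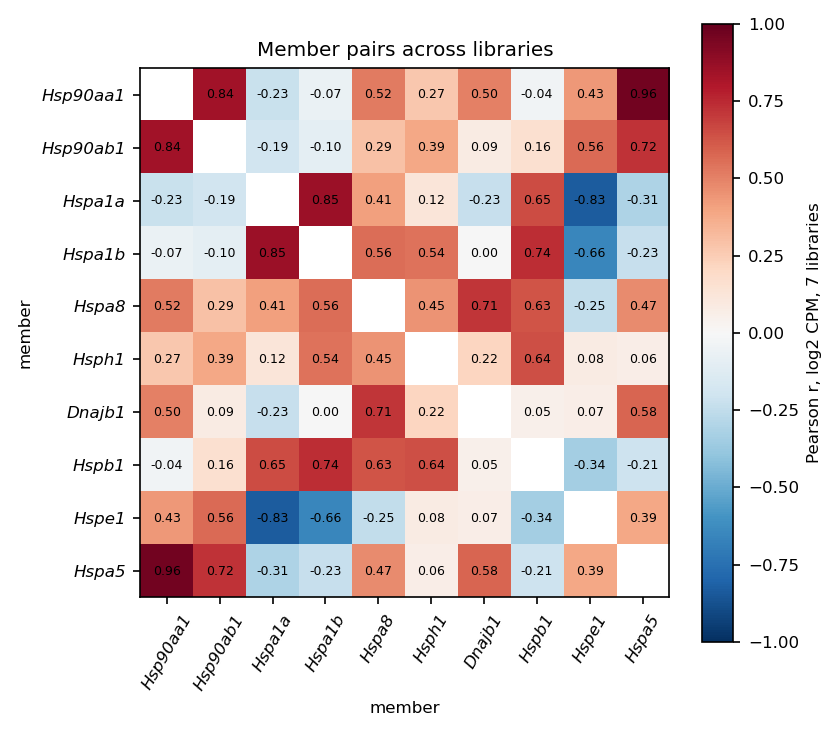
Pearson r of log2 CPM over the 7 libraries for each pair of members (both axes list the members, and the colour runs from -1 in blue to 1 in red). Hsp90aa1 with Hspa5 (0.96) is the highest value and Hspa1a with Hspe1 (-0.83) the lowest.

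Genes whose library pattern was most like the mean of the 8 members outside the mitochondrion and the endoplasmic reticulum were sought among the 7498 genes averaging 4 or more in log2 CPM. The closest over 7 libraries included the immunoproteasome subunit Psmb8 (r = 0.929, rho = 0.857), the tyrosine phosphatase Ptpn2 (0.927, rho = 0.893), the ubiquitin ligase Rnf5 (0.926, rho = 0.821) and the neuronal kinesin Kif5a (0.922, rho = 0.929). These 4 genes were highest in Pracinostat replicate 1, the library in which the member mean was also highest. In that library 6 oligodendrocyte markers summed to 1002 CPM, against 186 to 376 CPM in the others, and 6 fibroblast markers to 669 CPM, against 19.2 to 61.9 CPM elsewhere except DMSO replicate 2 at 1101 CPM. The part of these transcripts in the members' pattern was not tested.

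The regulators of the response and the partners of the members were described from lists of related genes. These lists were written with results of this contrast known, so their counts are descriptions. Over all genes, 52.3% were positive, and 2.81% were higher and 1.37% lower at an unadjusted p under 0.05. Groups did not overlap for 3.51% of all genes on the higher and 2.59% on the lower side. Of 4 heat shock factor genes tested, 3 were positive with a median log2 fold change of 0.06. By edgeR, DESeq2 and limma-voom 0 passed, and 1 had an unadjusted p under 0.05. Hsf1, the main stress-responsive factor, was at 34.0 ± 12.1 CPM (SD, n = 3) and 35.2 ± 6.28 CPM (SD, n = 4), a log2 difference of 0.05 ± 0.27. Hsf2, a factor that can pair with HSF1, was at 14.2, 15.04 and 17.8 CPM with DMSO and at 21.3, 23.6, 22.7 and 30.9 CPM with Pracinostat. Its groups did not overlap and its log2 difference was 0.65 ± 0.28 (edgeR adjusted p = 0.9998). Hsbp1, which binds HSF1, was at 0.06 ± 0.18.

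Among 23 HSP90 paralogs and co-chaperones, 15 were positive with a median of 0.04, and 0 passed edgeR, DESeq2 or limma-voom, with 0 at an unadjusted p under 0.05. Ahsa1, the activator of the HSP90 ATPase, was at 0.36 ± 0.22, and the cyclophilin Ppid at 0.35 ± 0.22. Ppid was the 1 gene of the 23 whose groups did not overlap, on the higher side, against 3.51% of all genes. Stip1, which bridges HSP70 and HSP90, was at 0.18 ± 0.18, the p23 gene Ptges3 at 0.13 ± 0.21, the immunophilin Fkbp5 at 0.05 ± 0.23 and the endoplasmic reticulum paralog Hsp90b1 at 0.19 ± 0.17. Hdac6, the deacetylase of HSP90, was at 23.1 ± 8.23 CPM (SD, n = 3) and 33.4 ± 3.68 CPM (SD, n = 4), with DMSO replicate 2 inside the Pracinostat range and a log2 difference of 0.53 ± 0.28. Across the co-chaperones the differences stayed smaller than that of Dnajb1.

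Of 21 further HSP70 and HSP110 chaperones and exchange factors, 15 were positive, with a median of 0.16. None passed by edgeR, DESeq2 or limma-voom, and 2 had an unadjusted p under 0.05, both on the higher side. Hspa4l, an HSP110 relative, was at 24.9 ± 5.22 CPM (SD, n = 3) and 40.3 ± 2.51 CPM (SD, n = 4), a log2 difference of 0.70 ± 0.24 with groups that did not overlap. Hyou1, the HSP110 of the endoplasmic reticulum, was at 0.40 ± 0.15, also without overlap. Such groups were seen for 3 of the 21 on the higher and 0 on the lower side, against 3.51% and 2.59% of all genes. Bag3, an HSF1 target that links HSP70 to autophagy, was at -0.15 ± 0.22.

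The 32 other J-domain genes were split, with 17 positive and 15 negative, a median of 0.01 and 0 past any of the 3 tools or at an unadjusted p under 0.05. Dnaja4 was at 4.42 ± 0.706 CPM (SD, n = 3) and 8.48 ± 0.482 CPM (SD, n = 4), a log2 difference of 0.94 ± 0.46, with groups that did not overlap. Dnaja1 was at 0.22 ± 0.16 and Dnajc30, a mitochondrial member, at -0.75 ± 0.39. Groups that did not overlap were seen for 2 J-domain genes on the higher and 1 on the lower side, against 3.51% and 2.59% of all genes.

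Of 15 chaperonin and prefoldin genes, 12 were positive with a median of 0.09, and 0 were called or had an unadjusted p under 0.05. Tcp1, a subunit of the cytosolic chaperonin, was at 0.21 ± 0.16. The other small heat shock proteins were barely detected: Cryab, alpha-B crystallin, was at 1.88 ± 1.64 CPM (SD, n = 3) and 3.83 ± 2.12 CPM (SD, n = 4), and Hspb8 at 2.84 ± 3.19 and 0.812 ± 1.16 CPM. Each was at or near 0 counts in at least 1 library, and 0 of the 5 tested were called.

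Genes of the endoplasmic reticulum stood beside Hspa5. Of 32 chaperones and unfolded protein response genes, 25 were positive with a median of 0.12, against 52.3% and 0.02 over all genes. By edgeR, DESeq2 and limma-voom 0 passed, and 3 had an unadjusted p under 0.05, all higher. The groups did not overlap for 3 of the 32 on the higher and 0 on the lower side, against 3.51% and 2.59% of all genes. Atf6, a sensor of the response that drives Hspa5, was at 76.0, 80.3 and 54.4 CPM with DMSO and at 85.6, 95.04, 101.7 and 123.6 CPM with Pracinostat, without overlap (log2 difference 0.53 ± 0.20). The stress factors Xbp1 (0.15 ± 0.20), Atf4 (0.11 ± 0.31) and Ddit3 (0.02 ± 0.40) had differences below their errors, and each changed sign when single libraries were left out.

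Besides Hspa5, 17 tested genes had the endoplasmic reticulum stress element in their promoter window, among them the chaperone genes Hsp90b1, Calr, Canx, Pdia6, Creld2 and Dnajc3. Of the 17, 12 were positive with a median of 0.09. Of 56 tested genes outside the members with the heat shock triplet, 35 were positive with a median of 0.08, and with the paired unit 732 of 1460 were positive with a median of 0.0032. Over the 10369 tested genes with a promoter entry, 51.7% were positive with a median of 0.01. In none of these motif sets did edgeR call a gene, and no set was tested against the others. Groups that did not overlap were seen for 40 paired-unit genes on the higher and 38 on the lower side, for 0 and 2 triplet genes and for 1 and 0 genes with the endoplasmic reticulum element, beside 339 and 286 of the 10369.

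For the mitochondrial unfolded protein response, 9 of 13 genes were positive, the median was 0.13 and 0 were called by any of the 3 tools. At an unadjusted p under 0.05 there was 1, on the lower side, the protease subunit Clpp. Clpp was at 13.5, 13.8 and 13.8 CPM with DMSO and at 7.36, 6.45, 7.54 and 9.77 CPM with Pracinostat, a log2 difference of -0.82 ± 0.37 with groups that did not overlap, where 2.59% of all genes had such groups on the lower side. The protease Htra2 was at 0.52 ± 0.27. Hspe1 and Hspd1 thus had neighbours on both sides of 0.

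Among 24 genes for proteins known as HSP90 clients, 15 were positive with a median of 0.07. By edgeR 0 passed and DESeq2 called 1, the inflammasome sensor Nlrp3 (log2 difference 1.04 ± 0.19, edgeR adjusted p = 0.482, DESeq2 adjusted p = 0.00225). The NF-kappaB kinase gene Chuk was at 0.45 ± 0.20. At an unadjusted p under 0.05 there were 2, both higher. Groups that did not overlap were seen for 4 of the 24, all on the higher side, where 3.51% of all genes had such groups, and 62.5% were positive against 52.3% of all genes. The list was written with results of this contrast known, and nothing is read from these counts.

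Several of the members are also induced, with immediate-early genes, while tissue is being dissociated. Over all genes 52.3% were positive with a median of 0.02, and 2.81% were higher at an unadjusted p under 0.05. Of 24 immediate-early and dissociation-response genes, 20 were positive with a median of 0.23, 0 were called by the 3 tools and 6 had an unadjusted p under 0.05, all higher. They summed to 15578, 16169 and 19714 CPM in the DMSO libraries and to 20856, 24054, 17451 and 18423 CPM in Pracinostat replicates 1 to 4, so replicates 1 and 2 lay above the DMSO range and 3 and 4 within it. Nfkbiz was at 0.71 ± 0.18 and Egr1 at 0.51 ± 0.18, while Fos was at -0.20 ± 0.15. Their part in the values of Dnajb1 and the other members was not tested.

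**Figure D5:**
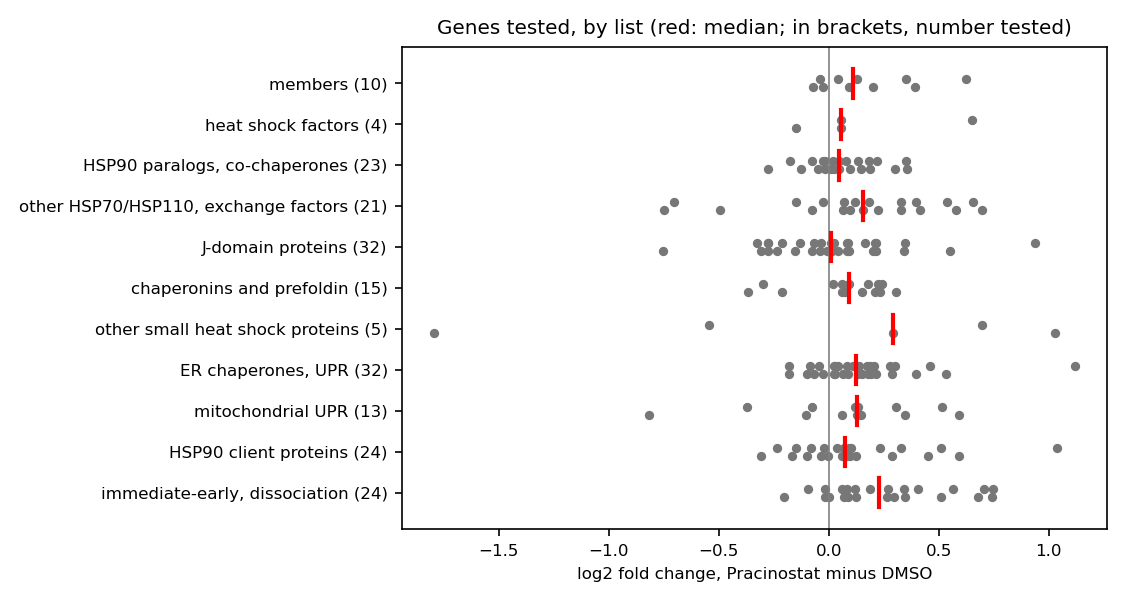
Log2 fold change, Pracinostat minus DMSO (horizontal axis), of every tested gene in each list of more than 1 gene (rows, number tested in brackets), each gene a grey point and the list's median a red bar. The medians run from 0.01 for J-domain genes to 0.29 for the 5 other small heat shock proteins, and the members' median is 0.11.

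Facts of the libraries that touch these values are few. Total counts ran from 10142753 to 16950597 per library, and 16319 to 19244 genes had a count. All 12 macrophage and microglia markers examined, Itgam and Ptprc among them, were detected in at least 1 library, as was every marker of the other cell types. The 12 summed to 8817 to 10021 CPM with DMSO and 8797 to 12832 CPM with Pracinostat. Single markers varied more: Ly6c2 had 0 counts in Pracinostat replicate 2. Mrc1 was at 45.2 CPM on TMM-scaled totals in Pracinostat replicate 3, against 262 to 410 CPM in the other libraries. Markers of endothelial and mural cells summed to 268 to 382 CPM and 104 to 394 CPM, of astrocytes to 102 to 138 CPM and 82.0 to 144.9 CPM, of neurons to 3.74 to 5.12 CPM and 3.45 to 9.40 CPM and of neutrophils to 268 to 431 CPM and 369 to 455 CPM. The neutrophil sum reports mainly Csf3r, which on TMM-scaled totals was at 271 to 359 CPM with DMSO and 320 to 411 CPM with Pracinostat. Ly6g had 0 counts in every DMSO library, and 8 and 14 counts in Pracinostat replicates 1 and 2. S100a9 differed widely between libraries of both groups. On TMM-scaled totals it ran from 0.515 to 45.8 CPM with DMSO and from 0 to 49.4 CPM with Pracinostat. In sorted bulk RNA, fewer cells with a transcript and less of it per cell cannot be told apart.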

How the data were processed

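RNA of CD11b-sorted cells was sequenced from 3 DMSO and 4 Pracinostat samples, from 1 ng of total RNA with a stranded kit and as pairs of 150 bases over 2 lanes, per the labels. Tools listed in the submitters' processing notes are STAR and RSEM, with Trim Galore, FastQC and MultiQC, and DESeq2. The notes give the build as GRCm39 and no versions, roles or order. Not given in the sources used here are the annotation and the strand setting. The authors deposited expected counts per gene symbol, stored as whole numbers and not normalized.

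The groups were compared with edgeR 4.0.16 (R 4.3.3): TMM scaling, genes kept by filterByExpr (minimum count 10), a two-sided robust quasi-likelihood test, Benjamini-Hochberg adjustment over the 15822 genes tested, threshold 0.05. Log2 fold changes are Pracinostat minus DMSO ± SE, and levels are CPM on TMM-scaled totals, except marker sums and Col1a1, which are CPM without TMM. Correlations used log2 CPM (prior count 2). DESeq2 1.42.0 and limma-voom (limma 3.58.1), other scalings and filters, each library left out, a replicate block and the summed Hspa1 copies were alternatives. On simulated counts (3 runs, 15822 genes) the test recovered 25.5% of genes set to a 2-fold change, 74.1% at 4-fold and 84.8% at 8-fold. It called 0.0482% of 43528 results for unchanged genes over the runs. Changes were set only in genes averaging 2 or more in log2 CPM, so recovery at lower levels is not covered. Counts were drawn independently for each gene, without differences in cell content between libraries.

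Named genes were the 10 members, the 2 with the smallest p of each list and 11 listed by name. Calr, Canx, Pdia6, Creld2 and Dnajc3 were picked once their values had been seen. The genes most like the members were the 8 with the highest r, of which 4 are named and 1 is not reported here. The members and lists were chosen with earlier results of these data known. Whether numbers shared by replicates of both groups mark pairs is unknown. The r of same-numbered deviations was 0.0445, -0.0352 and 0.0728, and that of differently numbered ones ran from -0.0740 to 0.0511, which cannot settle it. No 2 libraries were duplicates (lowest chi-square over degrees of freedom 30.4). Promoter coordinates are of GRCm38.p6, not the build of the counts, and were matched by symbol.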

Additional observations from a re-analysis of the deposited data

Results flagged for a closer look

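Among the 4 drug-treated samples, 46 values were screened, and in 1 of them a sample lay farther from its nearest neighbour than Dixon's 95% limit allows. Chance flags about 1 in 20. Dnajc30, a mitochondrial J-domain gene, stood at 11.9 CPM in the sample Pracinostat replicate 1. It stood at 7.60 to 7.93 CPM in the other drug-treated samples and 8.32 to 19.3 CPM with DMSO. Groups of 3 were not screened.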

How the results depend on the processing

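No member was called in any of the 16 alternatives. Over all genes 0 were called in 12 of them. The count was 63 with no low-count filter, 27 with DESeq2, 4 with the replicate number as a block (6 libraries) and 0 to 3 with 1 library left out, the 3 being without DMSO replicate 3. The direction of Dnajb1, Hsp90aa1, Hspa8 and Hspa5 was kept in all 16. In the fits that left out 1 library, log2 differences ran from -0.28 to 0.12 for Hspa1a, -0.077 to 0.19 for Hspa1b, -0.089 to 0.22 for Hsph1, -0.39 to 0.38 for Hspb1, -0.32 to 0.20 for Hspe1, -0.060 to 0.21 for Hsbp1, -0.13 to 0.38 for Hsf1, -0.047 to 0.35 for Ptges3, -0.15 to 0.21 for Fkbp5, -0.36 to 0.089 for Bag3, -0.024 to 0.37 for Xbp1, -0.35 to 0.70 for Ddit3 and -0.14 to 0.50 for Atf4. With the replicate block the sign also changed for Hspa1a (0.054), Hspb1 (0.10) and Fkbp5 (-0.094), and with limma-voom for Hspb1 (0.029). Without both libraries with Col1a1 above 100 CPM, an alternative chosen after seeing the data, it changed for Hsp90ab1 (-0.025), Hspa1a (0.11), Hsbp1 (-0.040), Ptges3 (-0.16), Fkbp5 (-0.18), Xbp1 (-0.12), Ddit3 (-0.34) and Atf4 (-0.22). The cause was not tested. The 1 pair of members past the correlation test became 0 without any 1 library, where 6 libraries allow a lone pair no adjusted p below 0.0625, so this says nothing about stability. Depth limits Hspb1, Hspe1, Cryab and Hspb8, which had few counts.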
